A study of Mus musculus with 8 samples.

Results

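GFP+ cells sorted from *Tie2e-cre* reporter mice, with leukocyte genes present beside endothelial genes, were compared between 2 fat depots. The depots were visceral adipose tissue (VAT) and subcutaneous adipose tissue (SAT) of mice fed chow. The comparison rests on 4 of the 8 RNAseq libraries of the series: the WT and the EC-*Tert*-KO library of VAT against the WT and the EC-*Tert*-KO library of SAT, with genotype as a block. Each library is 1 sample, so there are 2 libraries a side. Of the 54532 genes in the deposited count table, 16986 had a mean of at least 10 counts over these 4 libraries and were tested. A gene was said to agree in both genotypes when its VAT to SAT ratio lay beyond 2-fold in the same direction in the WT pair and in the EC-*Tert*-KO pair, with the whole 95% counting interval of each ratio (Clopper-Pearson) beyond that limit.

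All 4 libraries came from female mice aged 8 months that carried *Tie2e-cre* and the *mTmG* reporter. The WT mice were *Tie2e-cre*; TERT+/+; mTmG and the EC-*Tert*-KO mice *Tie2e-cre*; TERTfl/fl; mTmG, so Cre and the reporter were present in every group. The reporter switches from membrane Tomato to membrane GFP in cells in which Cre has been active, and GFP+ (mG+) cells were collected by FACS. Inguinal fat was taken as SAT and gonadal fat as VAT. The 4 other libraries, from skeletal muscle on chow and SAT on high-fat diet (HFD), did not enter the test. It is not stated whether cells of several mice were pooled or whether both depots came from the same mice. The p-values therefore cannot be read as measuring a spread between mice, and their error rests on dispersion shared across genes.

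*Tie2* (*Tek*) is a receptor of the endothelium, and Cre driven by *Tie2* sequences is known to mark endothelial cells and also part of the haematopoietic lineage, including macrophages. Inguinal fat of female mice surrounds the mammary ducts and the inguinal lymph node, while gonadal fat hangs in the peritoneal cavity under a layer of mesothelium. Resident macrophages of fat tissue lie along vessels and are recognised by scavenger and lectin receptors such as *Cd163*, *Mrc1*, *Lyve1* and *Timd4*. In libraries made from many cells at once, fewer cells of a type and less RNA per cell cannot be told apart.

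The libraries held 18855772 (SAT WT), 16095464 (SAT EC-*Tert*-KO), 9389345 (VAT WT) and 14344720 (VAT EC-*Tert*-KO) counts. Levels are given below as CPM, the count of a gene as a share of its library on the usual scale, after TMM scaling of the 4 libraries, always WT first and EC-*Tert*-KO second. Ratios are log2 of VAT over SAT, so that positive values are higher in VAT. A log2 with an SE is the value fitted over both pairs. The SE is the absolute fitted log2 divided by the square root of the F statistic of the edgeR test. It rests mainly on the dispersion shared across genes and is not a gene's own spread between the pairs. The ratio of 1 pair carries a prior count of 0.5. All 20 pan-endothelial genes checked had counts in each library, with a summed level between 764 and 3532 CPM. T cell genes (812 to 8414 CPM) and macrophage genes (1006 to 15587 CPM) were present beside them in each library. The SAT WT library stood apart: the nuclear RNA *Malat1* was at 278 and 5637 CPM in SAT and 4519.8 and 3196 CPM in VAT, and the X-inactivation RNA *Xist* at 184 and 1523 CPM in SAT and 1425 and 1196 CPM in VAT, so in both the SAT WT library was the lowest. Ribosomal protein genes summed to 127174 CPM in it and to 25178 to 44354.5 CPM in the 3 others. Both SAT libraries differed from both VAT libraries in ribosomal RNA: genes of type rRNA took 0.306% and 0.207% of the counts in SAT and 0.0372% and 0.0125% in VAT, and *mt-Rnr1*, a ribosomal RNA of mitochondria, stood at 2399 and 282 CPM in SAT and 2.97 and 3.09 CPM in VAT (log2 −8.06, SE 1.09, edgeR adjusted p = 1.47e-10). The part of these differences in the depot ratios below was not tested. The ratios also ran with gene length. Over 6 bins from short to long genes the median log2 ratio of protein-coding genes rose from −0.74 to 0.57 in the WT pair and fell from 0.39 to −0.26 in the EC-*Tert*-KO pair. *Tert* had 70 and 11 counts in SAT and 3 and 9 counts in VAT, so that in VAT the library labelled EC-*Tert*-KO did not have fewer *Tert* counts than the one labelled WT. Both counts were near the floor of 3 counts, and libraries are named here by their labels.

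**Figure D1:**
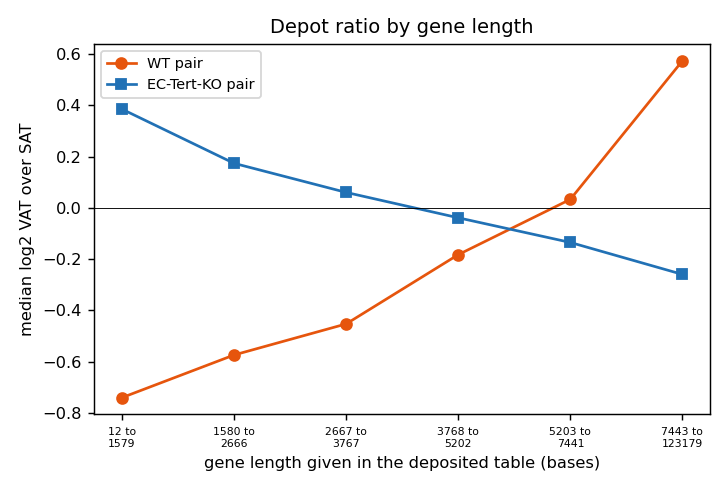
Median log2 VAT over SAT of protein-coding genes (vertical axis) in 6 bins of gene length in bases (horizontal axis), for the WT pair (circles) and the EC-*Tert*-KO pair (squares). The medians ran in opposite directions, from −0.74 to 0.57 in the WT pair and from 0.39 to −0.26 in the other.

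Between depots, 1425 genes were higher in VAT in both genotypes (8.39% of the genes tested) and 746 were lower in both (4.39%). In the edgeR quasi-likelihood test with genotype as a block and Benjamini-Hochberg adjustment at 0.05, 938 genes were higher in VAT (5.52%) and 404 lower (2.38%), and 821 and 376 of these also agreed in both genotypes. Counts of list members below are to be read against the shares of 5.52% higher and 2.38% lower. *Il5* and genes of the macrophage, complement, chemokine and endothelial lists were among the genes higher in VAT. Mammary epithelial, B cell and T cell genes and some genes of the lymph node list were among those lower. With 1 residual degree of freedom the error of the test comes from the dispersion trend across genes (common dispersion 0.320). Without the genotype block 201 genes passed as higher and 98 as lower, and with 1 library left out, which also removes the block, 165 and 80 passed without VAT WT, 176 and 82 without VAT EC-*Tert*-KO, 2240 and 1981 without SAT WT, and 4363 and 3904 without SAT EC-*Tert*-KO.

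The 2 pairs did not give equally many large ratios. In the WT pair 4234 genes were beyond 2-fold higher in VAT and 2869 beyond 2-fold lower, and in the EC-*Tert*-KO pair 2040 and 1801. A further 163 genes went beyond 2-fold in opposite directions, 142 of them higher in VAT in the WT pair and lower in the EC-*Tert*-KO pair. Over all genes tested the median log2 ratio was 0.02 in the WT pair and −0.06 in the EC-*Tert*-KO pair, and Pearson's r between the log2 ratios of the pairs was 0.453 across genes (Spearman's rho 0.440). Genes are not independent replicates, and no p is given for it.

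**Figure D2:**
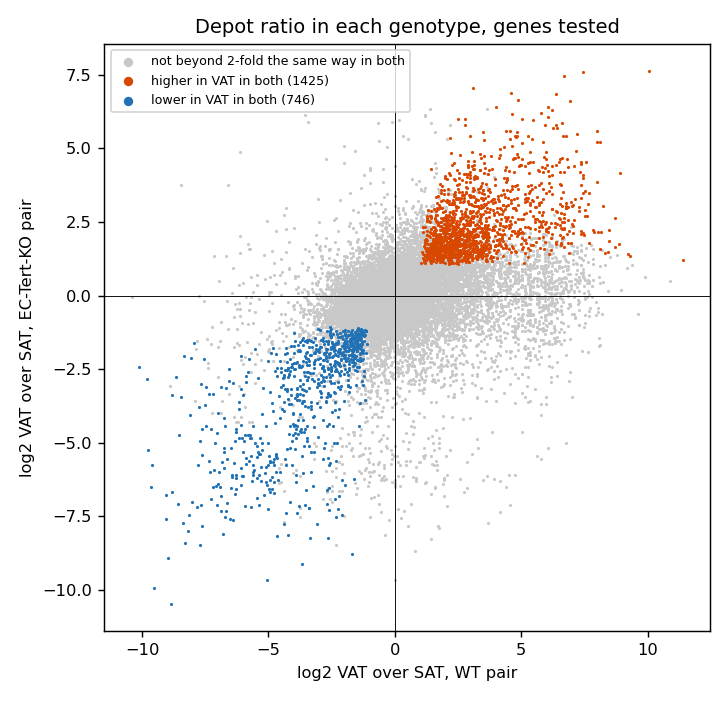
Log2 VAT over SAT of each gene tested, with the WT pair on the horizontal axis and the EC-*Tert*-KO pair on the vertical axis. The 1425 genes beyond 2-fold higher in VAT in both pairs are orange, the 746 genes lower in both are blue, and all other genes tested are grey. Many grey genes lie at high ratios in the WT pair and near 0 in the other.

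Macrophage genes were higher in VAT in both genotypes. Of the 24 genes of the macrophage list, 22 passed the test as higher in VAT and none as lower, against 5.52% of all genes tested, and these 22 agreed in both genotypes. The median log2 ratio of the list was 3.12 in the WT pair and 4.004 in the EC-*Tert*-KO pair, and its summed level was 1369 and 1006 CPM in SAT and 15105 and 15587 CPM in VAT. In this sum the VAT libraries were the 2 highest. *Cd9* (log2 0.49, edgeR adjusted p = 0.724) and *Gpnmb* (log2 0.28, adjusted p = 0.925) were the 2 members that did not pass. *Trem2* and *Lpl*, members that also belong to the list of lipid handling genes, passed as higher. Without the VAT WT library 15 of the 24 passed, without the VAT EC-*Tert*-KO library 13, and with all 4 libraries but no genotype block 14.

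The promoters of 2 macrophage genes among the largest ratios are shown, because PU.1 (*Spi1*), the ETS factor that myeloid cells need, binds sites with the core GAGGAA. Each is the part of the 250 bases before the RefSeq transcription start in GRCm38.p6 that also lies before the gene model of the deposited table. They are read 5′ to 3′ on the gene's own strand, and capitals mark GAGGAA on either strand (TTCCTC where the match is on the other strand). *Fcna* (chr2:25628031-25628224, minus strand, 194 bases) held 3 matches and *Mrc1* (chr2:14229164-14229391, plus strand, 228 bases) 3.
Fcna: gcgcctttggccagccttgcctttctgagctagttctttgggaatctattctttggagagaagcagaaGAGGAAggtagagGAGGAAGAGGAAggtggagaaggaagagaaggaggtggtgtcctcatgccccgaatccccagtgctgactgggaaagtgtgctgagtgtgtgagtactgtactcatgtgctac
Mrc1: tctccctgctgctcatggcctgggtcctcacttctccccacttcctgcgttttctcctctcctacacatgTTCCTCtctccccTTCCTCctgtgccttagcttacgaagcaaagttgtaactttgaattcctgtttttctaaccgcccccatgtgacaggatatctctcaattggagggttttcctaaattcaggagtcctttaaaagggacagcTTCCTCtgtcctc
GAGGAA occurred in 23.3% of all 32851 RefSeq windows of 250 bases, and in 26.7% of the tested genes that had a window. Of the 24 macrophage genes, which do not include *Fcna*, 15 had a window, and 9 of these held the letters. Among the 15 largest ratios that agreed as higher in VAT, 13 had a window and 5 of these held them. Among the 15 that agreed as lower, 12 had a window and 2 held them. The 2 promoters shown were picked by gene and do not stand for these sets. A match describes the sequence and says nothing of whether the factor was bound.

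Receptors and lectins of resident macrophages gave large ratios. *Fcna*, outside the list, which encodes the lectin ficolin A, stood at 5.48 and 3.43 CPM in SAT and 459 and 402 CPM in VAT (log2 6.62, SE 0.81, edgeR adjusted p = 1.04e-12). *Cd163*, the haemoglobin scavenger receptor, stood at 28.3 and 24.3 CPM in SAT and 1080.4 and 1045 CPM in VAT (log2 5.34, SE 0.89, edgeR adjusted p = 6.46e-07). *Mrc1*, the mannose receptor CD206, stood at 80.4 and 72.5 CPM in SAT and 2186 and 1849 CPM in VAT (log2 4.72, SE 0.96, edgeR adjusted p = 7.25e-05). In each of the 3 both VAT libraries lay far above both SAT libraries, and within a depot the genotypes were far closer to each other than the depots were. *Folr2*, the folate receptor of resident macrophages, stood at 2.42 and 2.27 CPM in SAT and 107 and 91.1 CPM in VAT (log2 5.39, SE 0.68, edgeR adjusted p = 4.82e-12). *Lyve1*, a hyaluronan receptor of perivascular macrophages and of lymphatic endothelium, stood at 6.69 and 20.6 CPM in SAT and 384 and 424 CPM in VAT (log2 5.09, SE 0.76, edgeR adjusted p = 1.10e-08). The phosphatidylserine receptor gene *Timd4* stood at 3.81 and 1.86 CPM in SAT and 54.9 and 37.3 CPM in VAT (log2 4.08, SE 0.69, edgeR adjusted p = 7.20e-07). *Lyve1* was lowest in the SAT WT library.

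Further macrophage genes were higher in VAT. *Csf1r*, the receptor for the growth factor CSF1, stood at 226 and 106 CPM in SAT and 1959 and 1713 CPM in VAT (log2 3.57, SE 0.91, edgeR adjusted p = 0.00287). *Adgre1*, which encodes F4/80, stood at 72.3 and 36.8 CPM in SAT and 571 and 587 CPM in VAT (log2 3.49, SE 0.76, edgeR adjusted p = 2.25e-04). In SAT, *Csf1r* and *Adgre1* were higher in the WT than in the EC-*Tert*-KO library. *Retnla*, an alternative activation gene, stood at 165 and 105 CPM in SAT and 2311 and 2799.6 CPM in VAT (log2 4.28, SE 0.99, edgeR adjusted p = 6.50e-04). The dermal and perivascular macrophage gene *F13a1* was 26.2-fold and 25.5-fold higher in VAT in the WT and the EC-*Tert*-KO pair, and *Cbr2*, a carbonyl reductase, 24.5-fold and 33.5-fold.

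The list of genes known from large peritoneal macrophages held 13 members, of which 7 passed as higher and none as lower. Coagulation factor V, *F5*, rose 13.01-fold and 10.4-fold (edgeR adjusted p = 1.95e-06), and *Alox15*, a lipoxygenase, 5.38-fold and 5.35-fold (adjusted p = 0.00368). *Prg4*, proteoglycan 4, had 19 and 50 counts in SAT and 427 and 124 counts in VAT (log2 3.41, SE 0.83, edgeR adjusted p = 0.00162), and the acute phase gene *Saa3* had 6 and 4 counts in SAT and 201 and 25 counts in VAT (log2 4.49, SE 1.20, edgeR adjusted p = 0.00478). Both were higher in the VAT WT than in the VAT EC-*Tert*-KO library. *Gata6*, the factor that defines large peritoneal macrophages, had 22 and 54 counts in SAT and 63 and 68 counts in VAT and did not pass (edgeR adjusted p = 0.571), nor did *Icam2*, at 68.7 and 28.3 CPM in SAT and 42.8 and 31.7 CPM in VAT. The 3 other members that passed, *Selp*, *Fn1* and *Serpinb2*, are also genes of other cells. Without the genotype block 1 of the 13 passed, and without the VAT WT library 3.

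Of 20 genes of lipid handling and lysosomes, 8 were higher and none lower. *Plin2*, which coats lipid droplets, stood at 48.6 and 71.8 CPM in SAT and 487 and 815 CPM in VAT (log2 3.41, SE 0.76, edgeR adjusted p = 3.75e-04), and the lysosomal membrane gene *Lamp2* at 101 and 129 CPM in SAT and 579 and 534 CPM in VAT (log2 2.28, SE 0.72, edgeR adjusted p = 0.0248). *Trem2*, a lipid receptor of macrophages, stood at 4.96 and 1.98 CPM in SAT and 28.5 and 19.9 CPM in VAT (log2 2.91, SE 0.74, edgeR adjusted p = 0.00256). These 3 genes were named for their depot ratio, so their separation by depot is no further result. *Apoe*, apolipoprotein E, agreed in both genotypes at 916 and 383 CPM in SAT and 4792 and 4429.8 CPM in VAT and narrowly missed the threshold (edgeR adjusted p = 0.0508). Without the VAT WT library 1 of the 20 passed, and without the VAT EC-*Tert*-KO library none.

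**Figure D3:**
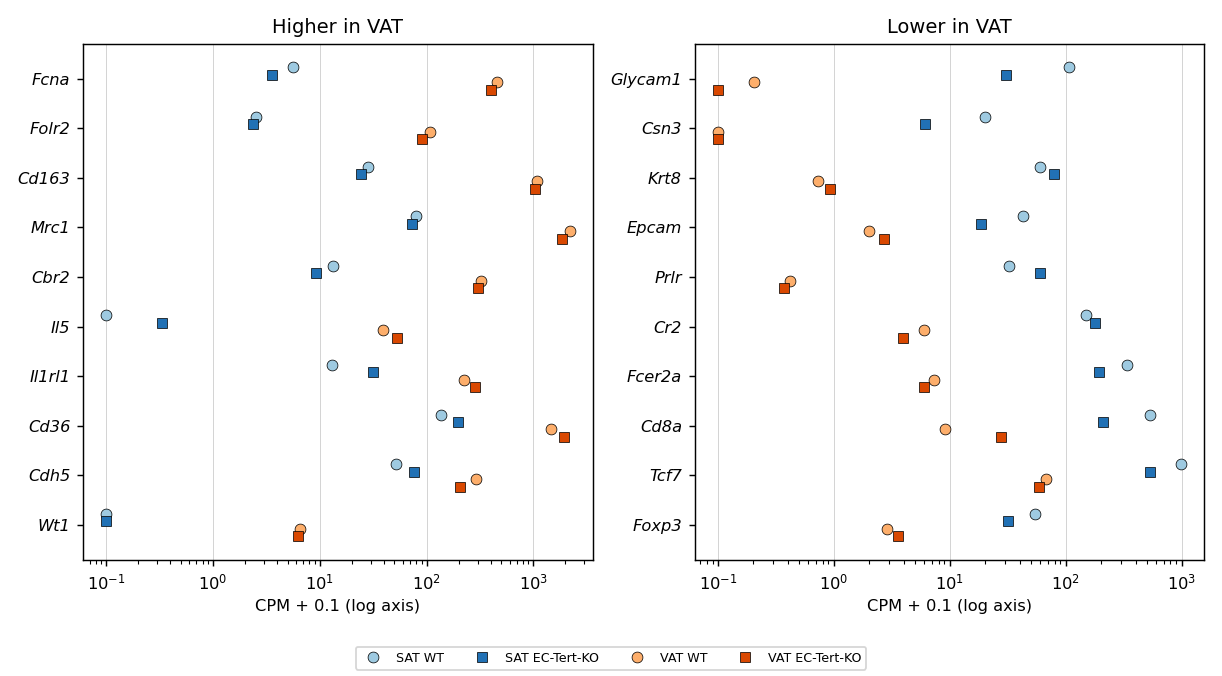
Level of 10 genes higher in VAT (left) and 10 genes lower in VAT (right) in each of the 4 libraries, as CPM after TMM scaling plus 0.1 on a log axis, with circles for WT, squares for EC-*Tert*-KO, blue for SAT and orange for VAT. In all 20 genes the 2 VAT libraries lie on the same side of the 2 SAT libraries. The genes were picked from those already found to differ between depots, so this separation was set by the choice.

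Complement genes were higher in VAT. Of 17 members tested, 9 passed as higher in VAT and none as lower. *C1qa*, *C1qb* and *C1qc*, the chains of C1q, which macrophages secrete, rose by log2 3.67, 3.62 and 3.84 (edgeR adjusted p = 5.09e-04, 8.09e-04 and 1.30e-04). The anaphylatoxin receptor gene *C5ar1* stood at 13.2 and 19.6 CPM in SAT and 402 and 420.4 CPM in VAT (log2 4.68, SE 0.74, edgeR adjusted p = 9.70e-08), and *C3ar1* at 12.9 and 17.3 CPM in SAT and 464 and 364 CPM in VAT (log2 4.78, SE 0.74, edgeR adjusted p = 5.95e-08). Both receptor genes lay far above SAT in both VAT libraries. The properdin gene *Cfp* rose by log2 3.17 (edgeR adjusted p = 8.73e-04), and the component gene *C4b* by log2 3.81 (adjusted p = 2.31e-04). *C6*, of the membrane attack complex, had 20 and 3 counts in SAT and 274 and 217 counts in VAT (log2 5.35, SE 0.90, edgeR adjusted p = 6.95e-07). *Cd55*, a decay factor at the cell surface, went beyond 2-fold lower in both genotypes, at 172 and 227 CPM in SAT and 71.2 and 59.2 CPM in VAT, but did not pass the test (log2 −1.61, edgeR adjusted p = 0.0797). Without the genotype block 6 of the 17 passed, as did 6 without the VAT EC-*Tert*-KO library.

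Chemokine and cytokine genes were higher in VAT in 16 of 26 members tested and lower in none. Their median log2 ratio was 2.97 in the WT pair and 2.18 in the EC-*Tert*-KO pair. *Ccl24*, an eosinophil attractant made by macrophages, stood at 3.86 and 2.21 CPM in SAT and 91.03 and 88.9 CPM in VAT (log2 4.93, SE 0.67, edgeR adjusted p = 1.72e-10). *Ccl7*, a monocyte attractant, stood at 1.44 and 13.6 CPM in SAT and 235 and 252 CPM in VAT (log2 5.69, SE 0.74, edgeR adjusted p = 3.59e-11). The neutrophil attractant *Cxcl2* stood at 11.8 and 85.5 CPM in SAT and 1369.6 and 1769.5 CPM in VAT (log2 5.61, SE 0.998, edgeR adjusted p = 3.12e-06). In *Ccl7* and *Cxcl2* the SAT WT library was lower than the SAT EC-*Tert*-KO library by more than 2-fold, while the VAT libraries lay close together. *Il6* showed the widest gap between the pairs of the list, with log2 6.89 in the WT pair and 2.19 in the EC-*Tert*-KO pair (0.519 and 20.5 CPM in SAT and 65.8 and 93.6 CPM in VAT; edgeR adjusted p = 1.49e-06). It lost its call in 6 other fits, among them that without the VAT EC-*Tert*-KO library (adjusted p = 0.116). *Il10*, the anti-inflammatory cytokine, stood at 1.73 and 6.52 CPM in SAT and 69.3 and 73.9 CPM in VAT (log2 4.37, SE 0.67, edgeR adjusted p = 3.21e-08). Without the genotype block 5 of the 26 passed.

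Other genes of large ratio or small adjusted p were also higher in VAT. *Hmox1*, which degrades haem, stood at 21.00 and 48.7 CPM in SAT and 1259 and 1261 CPM in VAT (log2 5.30, SE 0.93, edgeR adjusted p = 1.95e-06). *Ednrb*, the endothelin B receptor, stood at 7.85 and 19.97 CPM in SAT and 499 and 497 CPM in VAT (log2 5.31, SE 0.79, edgeR adjusted p = 1.39e-08). *Gdf15*, a stress-induced cytokine, stood at 2.48 and 10.5 CPM in SAT and 132 and 197 CPM in VAT (log2 4.95, SE 0.67, edgeR adjusted p = 1.72e-10). The SAT WT library was the lowest in each of the 3. *Tnip3*, an inhibitor of NF-kB, *Serpinb2*, *Serpinb8*, *C5ar2*, *Cd209f* and *Cd209g* were further genes of small adjusted p in the edgeR test, between 3.09e-11 and 1.52e-09, with log2 ratios between 4.66 and 5.54. The vomeronasal receptor gene *Vmn2r26*, with 0 and 4 counts in SAT and 90 and 141 counts in VAT, and the chemokine gene *Ccl1*, with 6 and 3 counts in SAT and 84 and 145 counts in VAT, were among the 15 largest ratios that agreed in both genotypes.

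**Figure D4:**
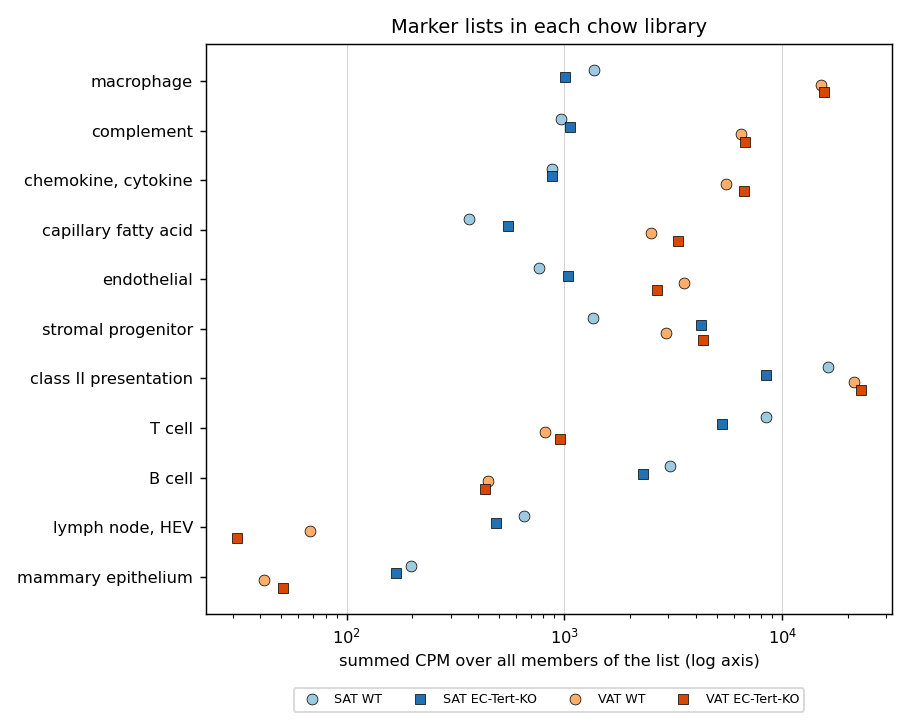
Summed CPM of 11 gene lists in each of the 4 chow libraries on a log axis, with the lists as rows, circles for WT, squares for EC-*Tert*-KO, blue for SAT and orange for VAT. The macrophage list lies at 1369 and 1006 CPM in SAT and 15105 and 15587 CPM in VAT, the T cell list at 8414 and 5267 CPM in SAT and 812 and 957 CPM in VAT.

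*Il5* had the smallest adjusted p among the genes higher in VAT. It encodes the cytokine that maintains eosinophils, made in fat by type 2 innate lymphoid cells (ILC2). The gene had 0 and 4 counts in SAT and 368 and 767 counts in VAT (log2 8.68, SE 0.93, edgeR adjusted p = 8.21e-17). With 0 counts in the SAT WT library it was at least 226-fold higher in VAT in the WT pair, measured against a floor of 3 counts in that library. *Il1rl1*, the receptor for IL-33, which ILC2, mast cells and regulatory T cells of fat carry, stood at 12.98 and 31.2 CPM in SAT and 226 and 286 CPM in VAT (log2 3.66, SE 0.66, edgeR adjusted p = 3.98e-06). *Hpgds* (log2 2.82) and *Klrg1* (log2 2.48), also genes of ILC2, passed with edgeR adjusted p = 2.74e-04 and 0.00508. *Il13*, the partner cytokine, agreed in both genotypes at 0.981 and 4.77 CPM in SAT and 9.56 and 14.3 CPM in VAT but did not pass (edgeR adjusted p = 0.0857), and the lineage factor *Gata3* did neither (log2 1.27, adjusted p = 0.181). Over the list for NK and innate lymphoid cells, 5 of 16 members passed as higher and none as lower, and without the VAT WT library 2. Of its NK genes, *Gzma* rose (log2 1.81, adjusted p = 0.0272), and *Ncr1*, which defines NK cells, stood at 23.8 and 7.92 CPM in SAT and 19.3 and 17.8 CPM in VAT and did not pass. The eosinophil genes *Siglecf* (log2 3.29, edgeR adjusted p = 0.00782) and *Ccr3* (log2 3.01, adjusted p = 0.00164) were higher. They were the 2 of 14 tested members of the mast cell, basophil and eosinophil list that passed, against 5.52% of all genes tested. *Prg2*, *Epx* and *Il5ra*, also of that list, were not among those that passed. Without the genotype block none of the 14 passed.

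Genes of regulatory T cells split. *Foxp3*, the factor that defines these cells, was lower in VAT, at 53.8 and 31.9 CPM in SAT and 2.76 and 3.50 CPM in VAT (log2 −3.72, SE 0.69, edgeR adjusted p = 9.00e-06), and so were *Ctla4* (log2 −2.45, edgeR adjusted p = 0.00173) and *Tnfrsf4* (log2 −3.47, adjusted p = 7.72e-05). *Il1rl1*, *Klrg1* and *Pparg*, genes that regulatory T cells of visceral fat also carry, were higher. *Pparg* stood at 6.29 and 8.32 CPM in SAT and 38.5 and 36.8 CPM in VAT (log2 2.38, SE 0.64, edgeR adjusted p = 0.00574). The 6 other members of the 12 did not pass, among them the IL-2 receptor gene *Il2ra* (log2 1.23, adjusted p = 0.205). The genes of the list that rose are shared with ILC2, macrophages or adipocytes, and the part of each cell type was not tested. Without the VAT WT library 1 gene of the list passed as higher and none as lower.

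Endothelial genes were higher in VAT in both genotypes, by less than macrophage genes. Of 20 pan-endothelial genes, 14 passed as higher and none as lower, and 16 agreed in both genotypes. The median log2 ratio was 2.33 in the WT pair and 1.64 in the EC-*Tert*-KO pair, and the summed level was 764 and 1042 CPM in SAT and 3532 and 2657 CPM in VAT. *Cdh5*, VE-cadherin of the endothelial junctions, stood at 51.6 and 75.6 CPM in SAT and 289 and 205 CPM in VAT (log2 1.96, SE 0.63, edgeR adjusted p = 0.0266). *Kdr*, the main VEGF receptor, stood at 25.6 and 83.8 CPM in SAT and 262 and 230.4 CPM in VAT (log2 2.40, SE 0.65, edgeR adjusted p = 0.00552). *Vwf*, von Willebrand factor, stood at 53.8 and 46.5 CPM in SAT and 409 and 158 CPM in VAT (log2 2.34, SE 0.64, edgeR adjusted p = 0.00646). *Kdr* was lowest in SAT WT and *Vwf* highest in VAT WT. *Pecam1*, which leukocytes share with endothelium, stood at 252 and 232 CPM in SAT and 435 and 338 CPM in VAT and did not pass (log2 0.66, edgeR adjusted p = 0.684). In the same libraries the summed macrophage level was higher and the summed T and B cell levels were lower in VAT, and the part of this in the endothelial ratios was not tested. In the fit of the same 4 libraries without the genotype block 1 of the 20 passed.

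Capillary genes of fatty acid uptake rose in VAT in 9 of 12 members tested, with none lower. *Cd36*, the fatty acid translocase, stood at 137 and 196 CPM in SAT and 1453 and 1938 CPM in VAT (log2 3.36, SE 0.89, edgeR adjusted p = 0.00427). *Gpihbp1*, which carries lipoprotein lipase across the capillary wall, stood at 11.1 and 14.6 CPM in SAT and 49.4 and 62.4 CPM in VAT (log2 2.13, SE 0.60, edgeR adjusted p = 0.00802), and *Lpl*, the lipase itself, at 56.9 and 99.4 CPM in SAT and 394 and 346 CPM in VAT (log2 2.29, SE 0.67, edgeR adjusted p = 0.0135). *Gpihbp1*, which is largely restricted to capillary endothelium, had nearly equal log2 ratios of 2.15 and 2.10 in the pairs. *Cd36*, *Lpl* and *Fabp4* are also genes of macrophages and adipocytes. *Fabp4* passed narrowly (log2 2.09, edgeR adjusted p = 0.0456), as did *Meox2*, a homeobox gene of capillary endothelium (log2 2.19, adjusted p = 0.0244). *Aqp7*, the glycerol channel, stood at 5.25 and 12.1 CPM in SAT and 38.8 and 48.7 CPM in VAT (log2 2.44, SE 0.63, edgeR adjusted p = 0.00319). Without the genotype block 1 of the 12 passed, and none without the VAT WT or without the VAT EC-*Tert*-KO library.

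Of 14 arterial and venous genes tested, 6 were higher and none lower. *Selp*, P-selectin of venous endothelium and platelets, had the largest ratio, at 5.60 and 18.9 CPM in SAT and 179.7 and 114 CPM in VAT (log2 3.78, SE 0.65, edgeR adjusted p = 1.48e-06). The adhesion gene *Vcam1* stood at 26.6 and 33.8 CPM in SAT and 111 and 147 CPM in VAT (log2 2.09, SE 0.58, edgeR adjusted p = 0.00736), and the arterial genes *Gja5* and *Dll4* rose by log2 2.64 and 2.02 (edgeR adjusted p = 0.0212 and 0.0208). *Efnb2* and *Sema3g* passed the test without agreeing beyond 2-fold in both genotypes. None of the 14 passed without the genotype block, and 1 without the VAT WT or the VAT EC-*Tert*-KO library. Among 8 lymphatic genes *Lyve1* alone passed, a gene also counted with the macrophages.

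**Figure D5:**
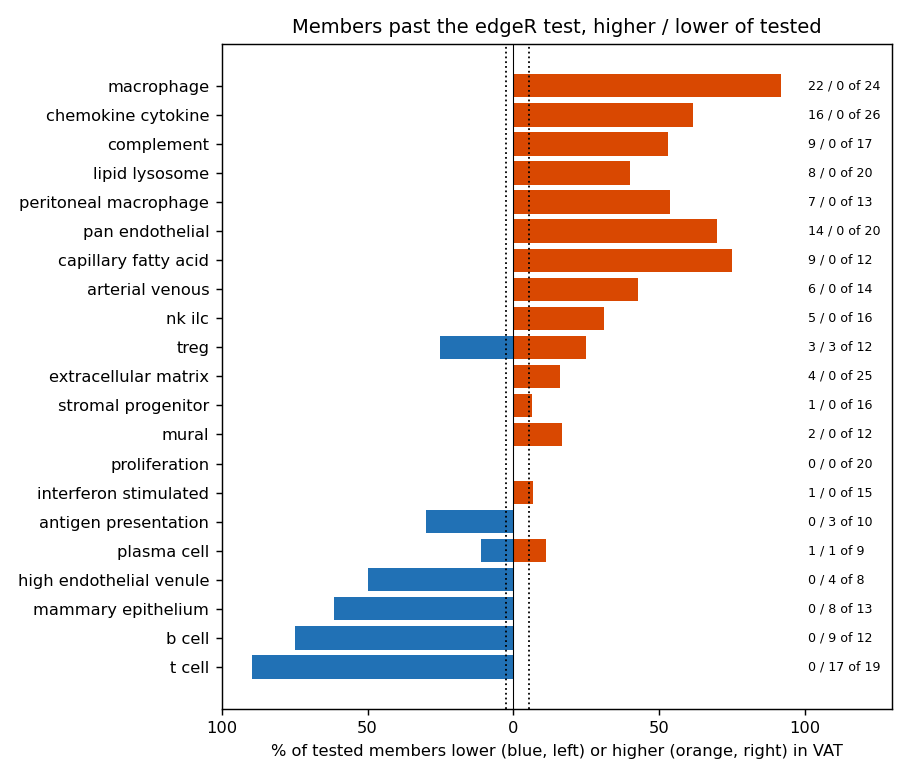
Share of the tested members of 21 gene lists that passed the edgeR test as higher in VAT (orange, to the right) or lower in VAT (blue, to the left), in percent, with the number higher, the number lower and the number tested at the right. The dotted lines are the shares over all genes tested, 5.52% higher and 2.38% lower, and the macrophage (22 of 24 higher) and T cell (17 of 19 lower) lists lie farthest from them.

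Vessel-associated mural genes, stromal genes and extracellular matrix genes passed in few members of the 4-library test, where 5.52% of all genes tested were higher. *Rgs5* and *Abcc9*, both of pericytes, were the 2 of 12 mural genes that rose, with *Rgs5* at 6.86 and 41.8 CPM in SAT and 61.7 and 221 CPM in VAT (log2 2.78, SE 0.60, edgeR adjusted p = 2.21e-04). Its level differed between genotypes in both depots, with each EC-*Tert*-KO library above the WT library of its depot. Over the other fits the log2 of *Rgs5* ran from 1.34 to 4.35 and that of *Abcc9* from 0.71 to 3.86. Without the genotype block none of the 12 mural genes passed. Among 16 stromal genes only *Thbs1*, thrombospondin 1, passed, at 8.36 and 257 CPM in SAT and 1100.0 and 1330.0 CPM in VAT (log2 4.69, SE 1.03, edgeR adjusted p = 3.00e-04), and its SAT libraries were far apart. *Col1a1*, the main fibrillar collagen, stood at 92.8 and 638 CPM in SAT and 96.2 and 326 CPM in VAT and did not pass (edgeR adjusted p = 0.796). Of 25 matrix genes 4 rose: the basement membrane genes *Col4a2* (log2 2.25, edgeR adjusted p = 0.0153), *Nid2* (log2 2.44, adjusted p = 0.00577) and *Lama4* (log2 1.78, adjusted p = 0.041), and fibronectin, *Fn1* (log2 2.84, adjusted p = 0.0327). Of the 25, 3 agreed as higher in both genotypes, against 8.39% of all genes tested. None of the 25 passed without the VAT WT or without the VAT EC-*Tert*-KO library, while without the SAT EC-*Tert*-KO library 17 of the 25 and 10 of the 16 stromal genes passed as higher.

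Genes of depot position were low in counts. *Wt1*, a factor of mesothelium and of visceral fat progenitors, had 0 and 0 counts in SAT and 61 and 89 counts in VAT (log2 9.53, SE 2.08, edgeR adjusted p = 2.55e-04), at least 37.4-fold and 34.95-fold higher in VAT against a floor of 3 counts in each SAT library. *Tcf21*, another factor of visceral progenitors, had 0 and 2 counts in SAT and 29 and 118 counts in VAT (log2 6.64, SE 1.80, edgeR adjusted p = 0.00568). Both had 0 to 2 counts in the SAT libraries and 29 or more in the VAT libraries. Fitted log2 values of genes with 0 counts in a library depend on the prior count and are no bounds. *Hoxa5* agreed in both genotypes without passing (log2 2.37, edgeR adjusted p = 0.197), and the 6 other tested members of the visceral list, *Nr2f1*, *Nr2f2*, *Gata6*, *Bnc2*, *Tbx18* and *Osr1*, did neither. *Gata4*, *Isl1*, *Bnc1* and *Tbx20* were under the count minimum. None of the 13 tested genes of the subcutaneous list (9 *Hox* genes, *Tbx15*, *Shox2*, *Tbx5* and *Meox1*) passed or agreed, and *En1*, *Hoxc8* and *Sim1* were under the minimum. *Tbx15*, a factor of subcutaneous progenitors, had 5 and 122 counts in SAT and 4 and 0 counts in VAT, so nearly all of its counts came from 1 library. The mesothelial gene *Upk3b* had 0 and 2 counts in SAT and 34 and 54 counts in VAT and missed the threshold (edgeR adjusted p = 0.0525), and *Podxl* passed (log2 1.90, adjusted p = 0.0266), while *Krt8*, *Krt18* and *Krt19*, keratins of mesothelium and of glandular epithelium, were lower in VAT.

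Mammary epithelial genes were lower in VAT. Of 13 tested, 8 passed as lower (against 2.38% of all genes tested) and agreed in both genotypes, and none passed as higher. *Krt8*, a keratin of luminal epithelium, stood at 60.2 and 78.6 CPM in SAT and 0.637 and 0.823 CPM in VAT (log2 −6.55, SE 0.76, edgeR adjusted p = 2.81e-14), and *Krt18* at 90.05 and 53.96 CPM in SAT and 2.02 and 1.17 CPM in VAT (log2 −5.50, SE 0.71, edgeR adjusted p = 1.36e-11). Both VAT libraries were near the bottom of the scale and both SAT libraries well above. *Csn3*, the milk protein kappa-casein, had 345 and 104 counts in SAT and 0 and 0 counts in VAT (log2 −10.37, SE 1.68, edgeR adjusted p = 2.25e-07), at least 62.5-fold and 29.4-fold lower in VAT against the floor of 3 counts a library. The tight junction gene *Cldn4* had 296 and 770 counts in SAT and 0 and 0 counts in VAT (log2 −11.94, SE 1.38, edgeR adjusted p = 2.79e-14), and *Epcam*, the epithelial adhesion molecule, had 735 and 316 counts in SAT and 18 and 38 counts in VAT (log2 −3.62, SE 0.75, edgeR adjusted p = 9.09e-05). *Krt5* and *Krt14*, keratins of the basal layer, had 0 counts in both VAT libraries and 49 to 86 in SAT. The list summed to 198 and 168 CPM in SAT and 41.96 and 50.9 CPM in VAT, and most of the VAT counts came from *Areg* and *Ltf*, genes that leukocytes share. The median log2 ratio was −4.44 in the WT pair and −4.14 in the EC-*Tert*-KO pair, or −3.78 and −3.64 with genes at 0 set at their bound. Without the VAT WT library, as without the VAT EC-*Tert*-KO library, 3 of the 13 passed.

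Other genes of glandular epithelium were also lower in VAT. *Prlr*, the prolactin receptor, had 565 and 1023 counts in SAT and 3 and 4 counts in VAT (log2 −7.24, SE 0.86, edgeR adjusted p = 1.81e-13). *Dmbt1* and *Wfdc2*, secreted by epithelia, had 327 and 261 counts and 206 and 181 counts in SAT, and the epithelial factor *Elf3* had 132 and 74. All 3 were at 0 in both VAT libraries and passed (edgeR adjusted p = 6.62e-10, 9.31e-07 and 9.06e-04). *Cldn3*, *Irx2*, *Atp6v1b1*, *Lcn4* and *Clca3a2* were at 0 in both VAT libraries too, with 55 to 290 counts in each SAT library. *Pgr*, the progesterone receptor, passed with unequal libraries (72 and 486 counts in SAT and 3 and 100 counts in VAT, log2 −2.69, SE 0.84, edgeR adjusted p = 0.0233). Over the other fits its log2 ran from −5.64 to −0.19.

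Some genes of the list for lymph nodes and high endothelial venules were also lower in VAT. *Glycam1*, a mucin-like glycoprotein of high endothelial venules, the vessels through which lymphocytes enter lymph nodes, had 1848 and 523 counts in SAT and 1 and 0 counts in VAT (log2 −10.27, SE 1.01, edgeR adjusted p = 7.31e-20), the smallest adjusted p of all genes tested. It is also a gene of mammary epithelium. *Cr2*, a complement receptor of B cells and follicular dendritic cells, stood at 151 and 177 CPM in SAT and 5.95 and 3.84 CPM in VAT (log2 −5.09, SE 0.67, edgeR adjusted p = 5.78e-11), and *Fcer2a*, the low-affinity IgE receptor of the same cells, at 337 and 193 CPM in SAT and 7.22 and 5.90 CPM in VAT (log2 −5.28, SE 0.71, edgeR adjusted p = 1.01e-10). *Cr2* was 25.1-fold and 45.7-fold lower in VAT and *Fcer2a* 46.4-fold and 32.5-fold. With *Enpp2*, autotaxin (log2 −1.85, edgeR adjusted p = 0.0265), 4 of 8 tested genes of the list for lymph nodes and high endothelial venules passed as lower and none as higher. None of the other members, *Madcam1*, *Fut7*, *Chst4*, *Ccl21a*, *Ccl19* and *Cxcl13*, passed, and 4 of them were tested. *Cr2* and *Fcer2a* are also B cell genes, and the B cell list was lower in VAT as well. The part of each cell type in these ratios was not tested. Without the genotype block 3 passed as lower. With a count minimum of 50, 5 members were tested, and 4 passed as lower and 1 as higher.

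B cell genes were lower in 9 of 12 members, with none higher and a median log2 ratio of −3.56 in the WT pair and −3.16 in the EC-*Tert*-KO pair. *Cd79a*, a chain of the B cell receptor complex, stood at 569 and 297 CPM in SAT and 30.7 and 25.7 CPM in VAT (log2 −3.87, SE 0.72, edgeR adjusted p = 9.98e-06). *Ms4a1*, which encodes CD20, stood at 355 and 191 CPM in SAT and 17.5 and 21.2 CPM in VAT (log2 −3.75, SE 0.67, edgeR adjusted p = 3.15e-06). The SAT WT library was the highest in both, and the VAT libraries were close to each other. Of 138 tested immunoglobulin variable segments 50 passed as lower and none as higher, with 73 beyond 2-fold lower in both genotypes and 1 beyond 2-fold higher, and 7 of 12 constant segments passed as lower. These segments are near-identical in part, and reads may be split between them.

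T cell genes were lower in 17 of 19 members, with none higher, and summed to 8414 and 5267 CPM in SAT and 812 and 957 CPM in VAT. *Cd8a*, a chain of the cytotoxic T cell coreceptor, stood at 531 and 211 CPM in SAT and 8.92 and 27.3 CPM in VAT (log2 −4.40, SE 0.76, edgeR adjusted p = 1.33e-06). *Cd4*, the helper coreceptor, stood at 338 and 149 CPM in SAT and 22.8 and 31.00 CPM in VAT (log2 −3.07, SE 0.65, edgeR adjusted p = 1.35e-04), and *Cd3e*, of the receptor complex, at 268 and 148 CPM in SAT and 24.5 and 24.3 CPM in VAT (log2 −3.03, SE 0.62, edgeR adjusted p = 8.52e-05). In *Cd8a* the genotypes differed in both depots, in SAT with WT higher and in VAT with EC-*Tert*-KO higher. *Tcf7* and *Lef1*, factors of naive T cells, had log2 values of −3.53 and −3.61 (edgeR adjusted p = 3.75e-04 and 3.05e-06), and the lymph node homing receptor *Ccr7* of −2.37 (adjusted p = 0.0387). *Ccr7* was highest in the SAT EC-*Tert*-KO library, at 211 and 1202 CPM in SAT and 92.9 and 103 CPM in VAT. *Nsg2*, *Izumo1r*, *Chst3* and *Dapl1* were other genes lower in VAT, with edgeR adjusted p between 3.72e-10 and 9.70e-08. Without the VAT WT library, which leaves 3 libraries and no genotype block, none of the 19 T cell genes and 2 of the 12 B cell genes passed, and without the VAT EC-*Tert*-KO library 4 of each.

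Of 10 class II antigen presentation genes 3 were lower in VAT and none higher. Of the 10, 2 agreed as lower in both genotypes, against 4.39% of all genes tested. *Cd74*, the invariant chain of all antigen presenting cells, stood at 7857 and 4300.4 CPM in SAT and 10191 and 11833 CPM in VAT and did not pass (edgeR adjusted p = 0.749). The B cell members *H2-Ob* (log2 −2.53, adjusted p = 0.00214) and *H2-DMb2* (log2 −2.30, adjusted p = 0.00736) were lower in VAT, as was *H2-Oa* (log2 −1.90, adjusted p = 0.0347), and *H2-Eb2*, outside the list, stood at 68.9 and 41.9 CPM in SAT and 4.46 and 1.10 CPM in VAT (log2 −4.56, SE 0.69, edgeR adjusted p = 2.44e-08). With the SAT WT library left out 6 of the 10 passed as higher, with the SAT EC-*Tert*-KO library left out 4, and with a VAT library left out none passed either way.

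Other lists passed in few members of the 4-library test, where 5.52% of all genes tested were higher and 2.38% lower. A lone call in such a list is near those shares and is no result about the list. None of 20 proliferation genes and none of 9 genes of telomerase and telomere proteins passed. Of 15 interferon-stimulated genes 1 was higher (*Cxcl10*). Of 12 heat shock genes 1 was higher (*Bag3*, which did not agree in both genotypes) and 1 lower (*Hspe1*). These counts changed without the SAT EC-*Tert*-KO library, where 17 of the 20 proliferation genes, 6 of the 9 telomere genes, 7 of the 15 interferon-stimulated genes and 8 of the 12 heat shock genes passed as lower, and without the SAT WT library, where 3, 3, 3 and 4 did. Of 18 immediate early genes, which cell dissociation is known to induce, 6 agreed as higher in both genotypes, against 8.39% of all genes tested. *Atf3* and *Ier3* passed as higher (log2 3.19 and 2.20, edgeR adjusted p = 0.00418 and 0.0137), while *Fos* stood at 846 and 859 CPM in SAT and 1209 and 1233 CPM in VAT and did not pass (adjusted p = 0.812). Without the SAT EC-*Tert*-KO library 15 of the 18 passed as higher, and without the SAT WT library 9. Neutrophil genes were higher in 3 of 13 members: the gelatinase gene *Mmp9* (log2 4.03, edgeR adjusted p = 9.03e-06), *Csf3r* and *Retnlg*, against 5.52% of all genes. *S100a8*, a calcium-binding protein of neutrophils, stood at 51.97 and 10.9 CPM in SAT and 60.1 and 46.3 CPM in VAT and did not pass. Of 14 adipocyte genes 11 were tested, and 6 agreed as higher in both genotypes, against 8.39% of all genes. In the test *Pparg* was higher and *Scd1*, a fatty acid desaturase, lower (5676 and 8293 counts in SAT and 573 and 729 counts in VAT; log2 −2.85, SE 0.69, edgeR adjusted p = 0.00142). *Adipoq*, the defining gene of adipocytes, had 6 and 0 counts in SAT and 20 and 29 counts in VAT. Of 15 genes of monocytes and dendritic cells the lectin gene *Cd209a* (log2 2.57, edgeR adjusted p = 0.00189) and *Batf3*, a factor of cross-presenting dendritic cells (log2 2.04, adjusted p = 0.0422), were higher and *Ccr7* lower, and of 9 plasma cell genes *Prdm1* was higher and *Mzb1* lower.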

How the data were processed

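RNA of FACS-sorted mG+ cells was isolated with an RNeasy kit per the labels and sequenced from SMARTER mRNA-Seq libraries. Per the submitters' processing notes reads were aligned with HISAT2 2.0.5 to GRCm38 (mm10). The program that counted reads, its annotation release and its use of strand are not given in the sources used here, so overlapping antisense genes cannot be told apart. The deposited values used are whole-number read counts per Ensembl gene, with no normalization by the authors.

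From these counts genes with a mean of at least 10 over the 4 libraries were scaled by TMM and tested with edgeR 4.0.16 (glmQLFit with robust dispersion, glmQLFTest) in R 4.3.3, with depot and genotype as terms, Benjamini-Hochberg adjustment over all genes tested and a threshold of 0.05. A test of the study's own for these counts is not given in the sources used here. Total counts ran from 9389345 to 18855772 per library; at 3 counts a library the floor is highest in the shallowest, VAT WT. The intervals of each pair's ratio (exact Clopper-Pearson, 95%) and the floors cover counting error only, and no pair has a replicate. The scripts were tested on simulated counts. The alternatives were DESeq2 1.42.0 (size factors and Wald test), library totals, other count minimums, no genotype block, more libraries, each library left out, and, chosen after seeing the data, removal of the length trend.

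The comparison and the gene lists were chosen with earlier results of these data known. Named genes were drawn from the visceral and subcutaneous position lists, the 15 largest ratios each way that agreed in both genotypes (mean of at least 50 counts, ranked by the smaller of both ratios), the 15 smallest adjusted p each way, list members that agreed in both genotypes or had the highest mean level, and *Tert*, *Malat1* and *Xist*. Predicted genes, Rik and pseudogene names and receptor segments were left out of the ranked sets. Genes named for agreeing or passing were picked for their depot ratio, so depots that did not overlap in them are no further result. The share of all genes tested whose depots did not overlap is not given here. *Gpnmb*, *Gata3*, *Gata6*, *Ncr1*, *Efnb2*, *Sema3g*, *Lama4* and *H2-Oa* were named after their values were seen. Some members of the lists are counted but not reported here by name. Promoter sequences are from RefSeq (GRCm38.p6). The muscle and HFD libraries served only in alternatives and in the closing observations.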

Additional observations from a re-analysis of the deposited data

Results flagged for a closer look

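In 163 of the 16986 genes tested the ratio went beyond 2-fold in opposite directions in the pairs, and 4 of them belong to a gene list. *Irf4*, a factor of plasma cells and activated lymphocytes, had log2 1.31 in the WT pair and −1.51 in the EC-*Tert*-KO pair, with 59.4 and 340.4 CPM in SAT and 147 and 119 CPM in VAT. The SAT EC-*Tert*-KO library was the highest. *Ttn*, titin of striated muscle, had log2 2.60 and −1.86, from 47 and 399 counts in SAT and 157 and 93 counts in VAT. *Camp*, the cathelicidin of neutrophils, had log2 −2.42 and 2.58, from 141 and 9 counts in SAT and 14 and 48 counts in VAT. *Muc16*, a mucin of mesothelium, had log2 3.07 and −5.38, from 8 and 22 counts in SAT and 39 and 0 counts in VAT, so the second value depends on the prior count. Each genotype has 1 library a depot, and the difference between genotypes was not tested.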

How the results depend on the processing

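No paired analysis was possible because each group holds 1 library and the labels give no number that pairs them beyond genotype, which the fit holds as a block. The 938 genes higher and 404 lower in VAT became 467 and 215 with library totals, 201 and 98 without the genotype block, 630 and 303 with the 6 chow libraries, and 537 and 318 with all 8 libraries. With 1 library left out, which also drops the block, the counts were 165 and 80 without VAT WT, 176 and 82 without VAT EC-*Tert*-KO, 2240 and 1981 without SAT WT, and 4363 and 3904 without SAT EC-*Tert*-KO. The share of calls that were higher, 69.9% in the fit with 4 libraries and the block, was 53.1% without SAT WT and 52.8% without SAT EC-*Tert*-KO, and was 62.8% with 8 libraries. The other 5 fits of the 4 libraries gave 762 to 1180 genes higher and 324 to 503 lower. No gene called in the 4-library fit was called in the opposite direction in any of these fits. With a limit of 4-fold in place of 2-fold, 396 genes were higher and 251 lower in both genotypes. Of 124 named genes that passed, 60 kept their call without the block, 66 without VAT WT, 65 without VAT EC-*Tert*-KO, 87 with 8 libraries, 99 with library totals, 118 without SAT WT and 119 without SAT EC-*Tert*-KO. The log2 ratio changed sign in 4 named genes that had not passed: without SAT WT *Malat1* had −0.55, *Xist* −0.22 and *Gpnmb* −0.0243, and without SAT EC-*Tert*-KO *Col1a1* had 1.17. The cause of these changes was not tested. With 1 library a group and 1 residual degree of freedom, the calls rest on the dispersion shared across genes.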

Other observations

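Of 984 transcription factor genes tested, 44 passed the edgeR test as higher in VAT (4.47%) and 24 as lower (2.44%). These shares are near the 5.52% and 2.38% of all genes tested and are no result about these genes. Of the 984, 60 agreed as higher and 45 as lower in both genotypes, where 8.39% and 4.39% of all genes tested did. Factors lower in VAT included *Pax5* of B cells (3407 and 5192 counts in SAT, 187 and 327 in VAT, edgeR adjusted p = 7.13e-06), *Tox* of T cells (log2 −2.44, adjusted p = 0.00258), *Foxa1*, a pioneer factor of mammary luminal epithelium (319 and 121 counts in SAT, 1 and 6 in VAT, adjusted p = 1.70e-04), and *Tfap2b* (102 and 34 counts in SAT, 0 in both VAT libraries, adjusted p = 0.0154). Factors higher in VAT included *Zeb2*, which macrophages need to keep their tissue identity (log2 3.23, adjusted p = 5.23e-04), *Bach1*, the haem-sensing repressor of *Hmox1* (log2 3.43, adjusted p = 6.64e-04), *Mitf* (log2 2.91, adjusted p = 8.60e-04), *Etv1* (20 and 31 counts in SAT, 249 and 264 in VAT, adjusted p = 1.05e-04) and *Jdp2* (log2 3.51, adjusted p = 9.01e-06). Of 59 T cell receptor variable segments tested 11 passed as lower and none as higher, with 29 beyond 2-fold lower in both genotypes and 1 beyond 2-fold higher.

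The muscle and SAT HFD libraries did not enter the comparison, and their levels are given on the scale of all 8 libraries with no test. The macrophage list summed to 1713 and 1104 CPM in the WT and EC-*Tert*-KO muscle libraries and to 956 and 589.7 CPM in SAT on HFD, against 15788 and 16606 CPM in VAT on chow. *Fcna* lay at 1.10 and 2.87 CPM in muscle and 0.289 and 0 CPM in SAT on HFD, and *Mrc1* at 42.9 and 15.4 CPM in muscle and 55.8 and 22.8 CPM in SAT on HFD, so VAT on chow was the highest of the tissues in both. *Il5* had up to 5.64 CPM in these 4 libraries. Pan-endothelial genes differed from this order, with sums of 3346 and 4119.5 CPM in muscle, 3691 and 2831 CPM in VAT and 534 and 505 CPM in SAT on HFD. *Cr2* lay at 84.2 and 81.2 CPM in muscle and 117 and 155 CPM in SAT on HFD, and T cell genes summed to 2329 and 1704 CPM in muscle and 4619 and 5555 CPM in SAT on HFD, against 849 and 1019 CPM in VAT. In both, the VAT libraries were the lowest of the 8. *Glycam1* had 26.8 and 47.1 CPM in muscle and 4.63 and 6.95 CPM in SAT on HFD, and *Krt8* 9.76 and 3.10 CPM and 1.30 and 5.64 CPM. The mammary list summed to 5396 and 5368 CPM in muscle, nearly all of it *Ltf*, a gene of neutrophil granules.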
